A study of Rattus norvegicus with 4 samples.

Results

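The core basement membrane genes comprised the 10 genes Col4a1, Col4a2, Lama2, Lamb1, Lamb2, Lamc1, Nid1, Nid2, Hspg2 and Col18a1. They were chosen by name, as core components of the basement membrane, and not by their values, though earlier results of these data were known. All 10 were on the array, where 14 probe sets carried one of these symbols alone, out of 10411 named genes and 15866 probe sets. Signal was measured on 4 Affymetrix rat arrays with total RNA of neonatal rat ventricular myocytes, beating muscle cells taken from newborn hearts and grown as a primary culture. The control group (n = 2 arrays) came from uncoated dishes and the fibronectin group (n = 2 arrays) from dishes whose surface carried fibronectin, a matrix glycoprotein bound by integrins. Both groups had 10% serum for the first 24 h and no serum for the following 48 h. No transgene, drug or other agent is named for either group, and strain and sex are not given in the labels. The labels do not state whether the 2 arrays of a group represent separate cultures, so errors and p-values cover the scatter of these samples alone, and that scatter may be technical.

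The basement membrane is the thin sheet of matrix that surrounds each cardiac myocyte and underlies the endothelium of its capillaries. Laminin trimers, each made of an alpha, a beta and a gamma chain, bind integrins and dystroglycan at the cell surface and polymerize there. Type IV collagen forms a second, covalently crosslinked network, nidogens bridge it to laminin, and the proteoglycans perlecan and collagen XVIII fill the sheet and hold growth factors. In the heart much of the collagen IV and laminin message is made by fibroblasts and endothelial cells as well as by myocytes. In these bulk samples, fewer cells of a type and less RNA per cell cannot be told apart.

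The collagen IV genes lie head to head, and the region they share is printed because these 2 genes are described first and were lower on the same arrays. RefSeq sequences of the GRCr8 build, covering 250 bases before to 50 bases after a gene's start, were found for 8 of the 10 genes. Nid2 and Lamb2 were not matched. The windows of Col4a1, on the plus strand, and Col4a2, on the minus strand, overlap by 176 bases, and 76 bases lie between the 2 starts. In the Col4a1 window, chr16:84885347-84885646 on the plus strand, capitals mark those 76 bases. The windows of Lama2, chr1:19491896-19492195 on the plus strand, and Hspg2, chr5:154960596-154960895 on the plus strand, are shown as a gene with lower and a gene with higher signal on fibronectin. In these, capitals mark the GC box letters GGGCGG on either strand.
Col4a1: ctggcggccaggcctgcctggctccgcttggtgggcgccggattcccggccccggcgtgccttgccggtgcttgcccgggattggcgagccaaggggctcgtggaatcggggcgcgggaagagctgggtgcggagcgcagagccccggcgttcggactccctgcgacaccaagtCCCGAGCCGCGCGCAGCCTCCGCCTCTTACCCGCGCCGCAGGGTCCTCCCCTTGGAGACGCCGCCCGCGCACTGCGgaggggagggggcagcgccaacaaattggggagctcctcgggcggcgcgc
Lama2: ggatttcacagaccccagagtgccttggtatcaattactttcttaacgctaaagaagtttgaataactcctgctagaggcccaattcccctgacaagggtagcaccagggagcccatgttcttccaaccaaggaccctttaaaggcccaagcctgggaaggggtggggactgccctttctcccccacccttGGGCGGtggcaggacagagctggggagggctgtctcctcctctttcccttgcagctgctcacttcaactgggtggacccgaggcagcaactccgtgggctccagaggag
Hspg2: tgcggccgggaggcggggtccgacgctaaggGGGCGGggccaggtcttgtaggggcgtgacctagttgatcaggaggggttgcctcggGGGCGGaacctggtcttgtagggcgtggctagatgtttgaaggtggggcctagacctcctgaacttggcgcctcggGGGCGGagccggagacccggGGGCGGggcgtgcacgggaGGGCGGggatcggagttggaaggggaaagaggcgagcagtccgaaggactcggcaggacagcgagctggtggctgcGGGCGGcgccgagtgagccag

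The GC box GGGCGG, searched on both strands, was present in all 8 member windows and in 33.1% of the 33469 rat promoter windows of the same length. The Hspg2 window held 6 matches, Lamc1 held 5, Col18a1 held 3, and Lama2 held 1. The remaining 4 windows held 2 each. The letters CCAAT, on either strand, were in the windows of Col4a1, Col4a2, Lama2 and Nid1, 4 of 8, and in 37.5% of all windows, and TATAAA was in 0 member windows and 14.2% of all. Member windows were rich in G and C, from 57.0% in Lama2 to 75.0% in Col4a1, where the median window had 51.7%. No match of one motif overlapped a match of another. Between the starts of Col4a1 and Col4a2 lay 1 GC box and 0 CCAAT matches. These matches describe the letters only.

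On fibronectin the collagen IV pair and the laminin chain gene Lama2 had lower signals than on uncoated dishes on both arrays, and the perlecan gene Hspg2 had a higher one. Taking the brightest probe set of each gene, 7 of the 10 genes had a lower mean on fibronectin and 3 a higher one, with a median log2 difference of -0.23. Over all 7101 genes tested the median was 0.02, and 48.6% were lower. Groups did not overlap in the lower direction for 3 member genes, Col4a1, Col4a2 and Lama2, against a background of 17.2% of all genes, and in the higher direction for 1, Hspg2, against 20.6%. With so few genes these counts are a description, and on the deposited scale, without quantile normalization, 0 member genes were lower without overlap, where 10.5% of all genes were. None of the 14 probe sets reached a Benjamini-Hochberg adjusted p under 0.05 in limma, and neither did any of the 9519 tested (0%). The lowest adjusted p among the members in limma was 0.528. Of the member probe sets, 2 were lower at an unadjusted limma p under 0.05 and 0 were higher, where 3.81% of all tested probe sets were lower and 2.66% higher at that level. An exact permutation test of 2 arrays against 2 cannot go below a two-sided p of 0.333.

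**Figure D1:**
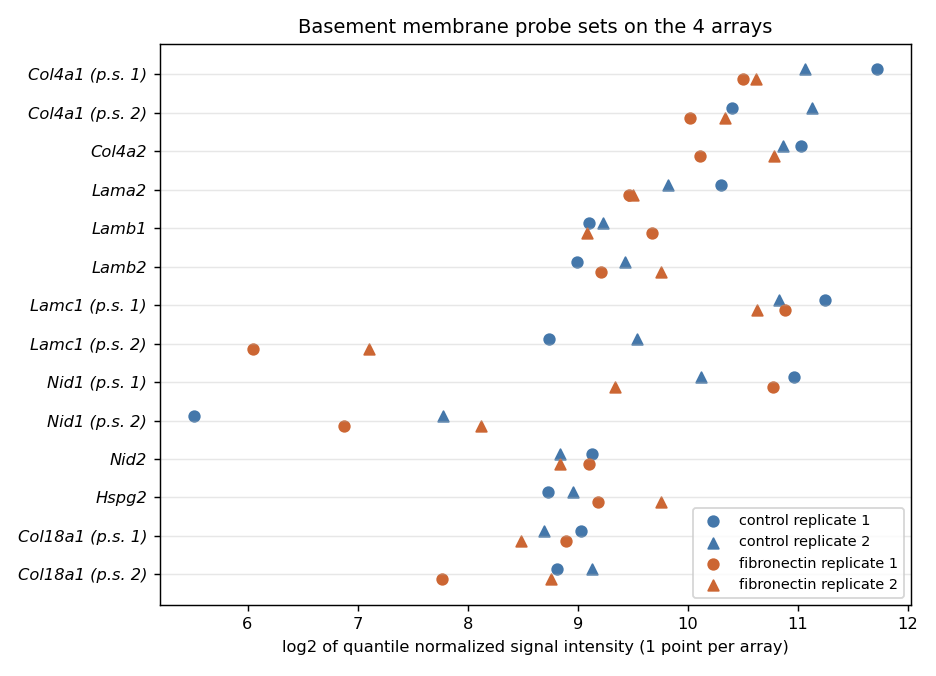
Log2 of the quantile normalized signal intensity (x axis) of each basement membrane probe set (y axis) on the 4 arrays, 1 point per array, with p.s. 1 the brighter and p.s. 2 the dimmer probe set of a gene. The fibronectin points lie left of both control points for Col4a1, Col4a2, Lama2, the dimmer Lamc1 and the dimmer Col18a1 probe set, and right of both for Hspg2.

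The arrays themselves differed, which bears on every value that follows. Median deposited intensity ran from 90.9 to 110.7, and trimmed means spread by a factor of 1.43. Pearson's r of log2 signals over the tested probe sets, a description across dependent features, was 0.910 for the pair of controls and 0.792 for the pair of fibronectin arrays. Fibronectin replicate 1 was closer to the controls than to its own group, with r of 0.904 against control replicate 1 and 0.847 against control replicate 2. Fibronectin replicate 2 stood apart, with r between 0.775 and 0.794 against the other 3 arrays. The ratio of 3' to 5' signal of the beta-actin control probe sets was 1.46 and 1.40 on the controls but 13.0 and 6.29 on fibronectin replicates 1 and 2. For Gapdh the ratio was 1.64 and 1.15 on the controls, and 6.02 and 3.52 on fibronectin. This measure of RNA or label integrity moved with the coating, and its part in the differences was not tested. Of 9 listed myocyte markers 8 were tested, and all were above the floor on all 4 arrays. Their log2 signals reached from 13.77 to 14.28 for Myl2, the ventricular light chain and the brightest, down to 6.81 to 8.83 for Ryr2, the ryanodine receptor and the dimmest.

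Col4a1 and Col4a2 encode the chains of the main collagen IV trimer. The brighter Col4a1 probe set had log2 signals of 11.72 and 11.06 on control replicates 1 and 2, and 10.50 and 10.62 on fibronectin replicates 1 and 2. Both fibronectin values were below both controls, and control replicate 1 was the highest of the 4. The means were 11.39 ± 0.47 on uncoated dishes and 10.56 ± 0.08 on fibronectin (SD, n = 2 each), a difference of -0.83 (SE 0.31, 95% interval -1.54 to -0.12). That is a 1.78-fold lower signal, with limma's unadjusted p = 0.0272 and adjusted p = 0.726 (Benjamini-Hochberg). The difference was -1.18 when control replicate 2 was left out and -0.51 when control replicate 1 was.

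The dimmer Col4a1 probe set gave the same order of groups. It read 10.40 and 11.13 on the controls, and 10.02 and 10.33 on fibronectin, again without overlap. Here control replicate 2 was the higher control, whereas it was the lower one in the brighter probe set. The difference was -0.59 (SE 0.33), 1.50-fold lower, with limma's Benjamini-Hochberg adjusted p = 0.771. It shrank to -0.22 without control replicate 2 and reached -0.97 without control replicate 1. Each Col4a1 probe set was thus lower on fibronectin whichever array was left out, while the size depended on the control retained.

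Col4a2 had 1 probe set, with log2 signals of 11.02 and 10.87 on the controls and 10.11 and 10.78 on fibronectin. The groups did not overlap, but fibronectin replicate 2 lay only just below control replicate 2. The difference was -0.50 (SE 0.31, 95% interval -1.22 to 0.23), 1.41-fold lower, with limma's Benjamini-Hochberg adjusted p = 0.772. Without fibronectin replicate 1 it was -0.18, and without fibronectin replicate 2 it was -0.78. The 2 collagen IV genes had the same sign, and their intervals overlap widely. Any part of the shared region printed above was not tested.

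The collagen IV values depended on scale. On the deposited scale, without quantile normalization, the brighter Col4a1 probe set read intensities of 3082 and 1769 on the controls, and 1811 and 1405 on fibronectin. Fibronectin replicate 1 then exceeded control replicate 2, so the groups overlapped, and the log2 difference was -0.55. Col4a2 read 2107 and 1558 on the controls and 1394 and 1604 on fibronectin, overlapping likewise, with a difference of -0.28. Over all probe sets of the members, 3 were lower without overlap there, the dimmer ones of Col4a1, Lamc1 and Col18a1, and 2 were higher, Lamb2 and Hspg2, where 12.5% and 20.6% of all probe sets tested on that scale lay in those classes.

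Lama2 encodes the laminin alpha-2 chain, the alpha chain of the laminins of muscle basement membrane. Its log2 signals were 10.30 and 9.82 on the controls and 9.47 and 9.50 on fibronectin. The fibronectin arrays were nearly equal and both lay below the controls, of which replicate 1 was the higher. The difference was -0.58 (SE 0.31, 95% interval -1.29 to 0.14), 1.49-fold lower, with limma's Benjamini-Hochberg adjusted p = 0.764. It ran from -0.82 without control replicate 2 to -0.33 without control replicate 1, and on the deposited scale it was -0.44 with overlapping groups.

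The beta chains did not separate. Lamb1, the beta-1 chain found in most laminins, read 9.10 and 9.23 on the controls and 9.67 and 9.09 on fibronectin, so that the fibronectin arrays were the highest and the lowest of the 4. Its difference was 0.21 (SE 0.33, 95% interval -0.56 to 0.99), with an adjusted p of 0.892 in limma (Benjamini-Hochberg), and it turned to -0.08 without fibronectin replicate 1. Lamb2, the beta-2 chain that is prominent at neuromuscular and vascular basement membranes, read 8.99 and 9.43 on the controls and 9.21 and 9.75 on fibronectin. Replicate 2 was the higher in each group, and the groups overlapped. The difference was 0.27 (SE 0.34, 95% interval -0.52 to 1.07), with limma's Benjamini-Hochberg adjusted p = 0.856. On the deposited scale the Lamb2 groups did not overlap, with 557 and 573 on the controls against 755 and 717 on fibronectin and a difference of 0.38. Without fibronectin replicate 2 the Lamb2 difference was -3.91e-05.

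Lamc1 encodes the gamma-1 chain, the partner of most alpha and beta chains, and its 2 probe sets disagreed in size. The brighter one read 11.24 and 10.82 on the controls, and 10.88 and 10.63 on fibronectin. These groups overlapped, with a difference of -0.28 (SE 0.28, 95% interval -0.94 to 0.38) and limma's Benjamini-Hochberg adjusted p = 0.820. The dimmer one read 8.74 and 9.54 on the controls, and 6.05 and 7.10 on fibronectin. Both fibronectin arrays were far below both controls, and the groups were separated by more than the gap between arrays of either group. The difference was -2.56 (SE 0.49, 95% interval -3.71 to -1.41), a 5.90-fold lower signal, and only 0.357% of tested probe sets had a lower difference. It had the lowest p of the members, with limma's unadjusted p = 0.000962 and Benjamini-Hochberg adjusted p = 0.528.

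The dimmer Lamc1 probe set was lower on fibronectin whichever array was left out. The difference was -1.96 without fibronectin replicate 1 and -3.16 without fibronectin replicate 2. Without control replicate 1 or 2 it was -2.97 and -2.19. In such fits the single remaining array is taken to vary as the other group does, so only the differences are given here. On the deposited scale it was -2.55, from intensities of 467 and 620 on the controls to 67.9 and 125 on fibronectin. The gap of 2.28 between the differences of the 2 Lamc1 probe sets was matched or exceeded in 3.88% of the 850 genes that had several tested probe sets, where the median gap between the brightest and the dimmest was 0.65. The Gapdh and beta-actin ratios of 3' to 5' signal, higher on both fibronectin arrays as given above, moved with this probe set and their part was not tested. Which stretch of the Lamc1 transcript each probe set reads is not known here.

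**Figure D2:**
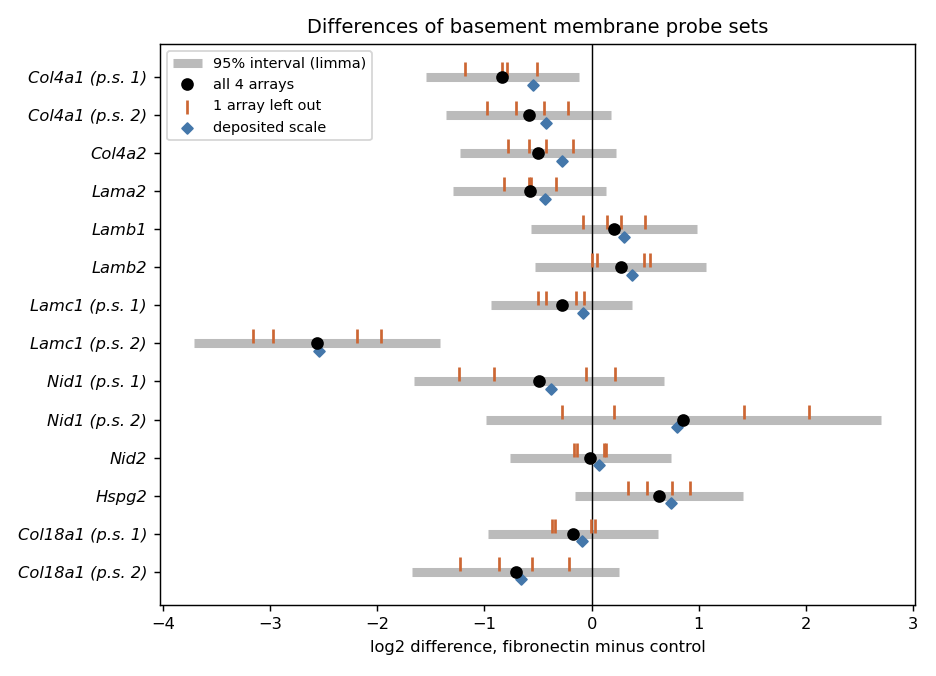
Log2 difference, fibronectin minus control (x axis), of each basement membrane probe set (y axis). Black points use all 4 arrays, grey bars are limma's 95% intervals, orange bars give the value with 1 array left out, and blue diamonds the deposited scale. The intervals of the brighter Col4a1 probe set and the dimmer Lamc1 probe set lie below 0, before adjustment for the number of tests, and the rest cross it.

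For the nidogens, which link laminin to collagen IV, arrays of a group differed by more than the groups did. The brighter Nid1 probe set read 10.97 and 10.12 on the controls, and 10.77 and 9.34 on fibronectin. Replicate 1 was high and replicate 2 low in each group, and the gap between fibronectin arrays, 1.43, was larger than the difference between groups of -0.49 (SE 0.50, 95% interval -1.66 to 0.68). Limma's Benjamini-Hochberg adjusted p was 0.820, and without fibronectin replicate 2 the difference was 0.22. The dimmer Nid1 probe set had the reverse order of replicates, with 5.51 and 7.78 on the controls, and 6.88 and 8.12 on fibronectin. Its difference was 0.86 (SE 0.79), opposite in sign to the brighter one, with an adjusted p of 0.809 in limma (Benjamini-Hochberg) and a value of -0.28 without control replicate 1. The 2 probe sets thus gave no common direction for Nid1. Nid2, the second nidogen, read 9.13 and 8.84 on the controls, and 9.10 and 8.84 on fibronectin. It was the member with the smallest difference, -0.01 (SE 0.32, 95% interval -0.76 to 0.74), an adjusted p of 0.993 in limma (Benjamini-Hochberg), and its sign turned on the deposited scale.

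Hspg2 encodes perlecan, the large heparan sulfate proteoglycan that anchors the sheet to the cell surface and binds growth factors. It read 8.73 and 8.96 on the controls, and 9.19 and 9.76 on fibronectin. Both fibronectin values were above both controls, and it was the only member gene of which this was true on the normalized scale. The means were 8.84 ± 0.16 and 9.47 ± 0.41 (SD, n = 2 each), a difference of 0.63 (SE 0.34, 95% interval -0.16 to 1.41). The signal was 1.55-fold higher, with limma's Benjamini-Hochberg adjusted p = 0.768. The difference stayed above 0 with any 1 array left out, from 0.34 without fibronectin replicate 2 to 0.91 without fibronectin replicate 1. On the deposited scale it was 0.74, from intensities of 463 and 414 to 742 and 721, also without overlap.

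Col18a1 encodes collagen XVIII, a heparan sulfate proteoglycan whose released C-terminal fragment is endostatin. Its brighter probe set read 9.03 and 8.70 on the controls, and 8.90 and 8.49 on fibronectin, with overlapping groups and a difference of -0.17 (SE 0.34). Limma's Benjamini-Hochberg adjusted p was 0.914, and the difference was 0.03 without fibronectin replicate 2. The dimmer probe set read 8.81 and 9.13 on the controls, and 7.77 and 8.75 on fibronectin. These groups did not overlap, though fibronectin replicate 2 was close to control replicate 1, and fibronectin replicate 1 was the lowest of the 4. The difference was -0.71 (SE 0.42, 95% interval -1.68 to 0.26), with an adjusted p of 0.771 in limma (Benjamini-Hochberg), and it was -0.21 without fibronectin replicate 1 and -1.22 without fibronectin replicate 2.

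Counted over all 14 probe sets, 10 were lower and 4 higher on fibronectin, with a median difference of -0.38, against -0.02 over all 9519 tested. Groups did not overlap for 6 lower and 1 higher member probe sets, where 19% and 19.3% of all tested probe sets lay in those classes. Probe sets of a gene are not independent, and 4 of the 10 genes had 2. In 10 of the 14 the larger gap between arrays of a group exceeded the difference between groups, as it did in 75.3% of all tested probe sets. Set against each gene's control mean, the median of the 10 genes was 0.16 and -0.16 on the controls, 0.02 on fibronectin replicate 1 and -0.27 on fibronectin replicate 2. The 2 control medians mirror each other by construction, since each gene's control mean is the mean of these 2 arrays. Fibronectin replicate 1 lay between the controls in this median, and the median difference was 0.02 without fibronectin replicate 2.

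**Figure D3:**
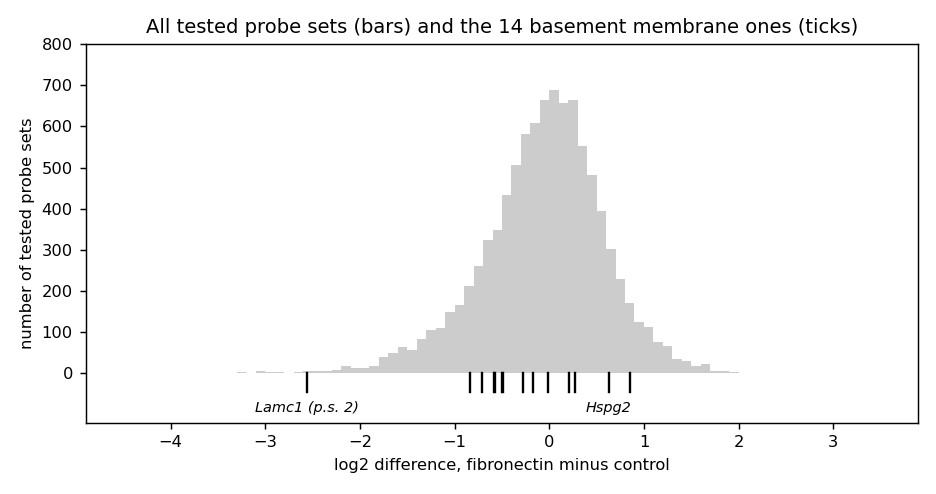
Histogram of log2 differences, fibronectin minus control (x axis), over all 9519 tested probe sets (y axis, number of probe sets), with black ticks below the axis for the 14 basement membrane probe sets. The dimmer Lamc1 probe set lies in the far lower tail at -2.56, and the rest lie between -0.83 and 0.86.

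Other components of the sheet showed no shared direction. Of 24 listed genes, among them further laminin and collagen IV chains, 10 were tested, of which 5 were higher, 5 lower and 0 past limma's threshold, with a median difference of 0.02. The brightest were Sparc, the collagen-binding glycoprotein osteonectin, Col4a5, a chain of a rarer collagen IV trimer, and Fbln2, fibulin-2. Sparc read 11.74 and 12.74 on the controls and 11.63 and 13.02 on fibronectin, which followed the replicate number and not the coating. Col4a5 read 10.17 and 9.28 on the controls and 9.37 and 9.14 on fibronectin, a difference of -0.47 (SE 0.37) with overlap. Fbln2 read 9.07 and 9.05 on the controls and 9.75 and 9.67 on fibronectin, a difference of 0.64 (SE 0.29). It was the 1 gene of the list without overlap, where 20.6% of all tested genes were higher without overlap and 17.2% lower.

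Receptors for these proteins were lower in 11 of 15 tested genes and higher in 4, with a median of -0.39 and 0 past limma's threshold. Groups did not overlap for 4 lower genes and 1 higher gene, where 17.2% and 20.6% of all tested genes lay in those classes. The lower ones were Itgb1, the dystroglycan gene Dag1 at -0.39, and the syndecan genes Sdc3 at -0.82 and Sdc4 at -0.39. The higher one was the alpha-sarcoglycan gene Sgca at 0.66. Itgb1, the beta-1 subunit of the collagen- and laminin-binding integrins, read 11.60 and 11.14 on the controls and 10.83 and 10.37 on fibronectin, a difference of -0.77 (SE 0.30). Bcam, a laminin alpha-5 receptor, differed by 0.48 (SE 0.37) and Gpc1, the proteoglycan glypican-1, by -0.03 (SE 0.35), each with overlap.

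Genes for folding and crosslinking of collagen IV were higher in 10 of 14 and lower in 4, with a median of 0.17 and 0 past limma's threshold. Of the 3 brightest, P4hb and Serpinh1 were lower without overlap and Ppib was not. P4hb, the disulfide isomerase that is also a subunit of prolyl hydroxylase, read 12.23 and 11.99 on the controls and 11.38 and 11.45 on fibronectin, a difference of -0.69 (SE 0.25). Serpinh1, the collagen chaperone HSP47, read 12.14 and 11.85 on the controls and 11.42 and 11.31 on fibronectin, a difference of -0.63 (SE 0.26). Both lay below the controls on both arrays, and Plod2, a lysyl hydroxylase, was the third gene lower without overlap, at -0.67. Ppib, a prolyl isomerase, differed by 0.11 (SE 0.29). In the higher direction, Pxdn, the peroxidase that crosslinks collagen IV, the collagen galactosyltransferase gene Colgalt1 and the prolyl hydroxylase gene P3h1 did not overlap, with differences of 0.37, 0.50 and 0.38. Of all tested genes, 17.2% were lower and 20.6% higher without overlap. These genes also serve other collagens.

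Genes of basement membrane turnover were lower in 7 of 12 and higher in 5, with a median of -0.10 and 0 past limma's threshold. Mmp2, the gelatinase that cleaves collagen IV, differed by -0.14 (SE 0.26), the cathepsin gene Ctsb by 0.19 (SE 0.26) and the inhibitor gene Timp2 by 0.38 (SE 0.32). These are values of the brightest probe set of each gene, and a dimmer Timp2 probe set had the opposite sign, as given at the end. Only Ctsb, higher, and Ctsl, lower, were without overlap, where 20.6% and 17.2% of all tested genes lay in those classes.

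**Figure D4:**
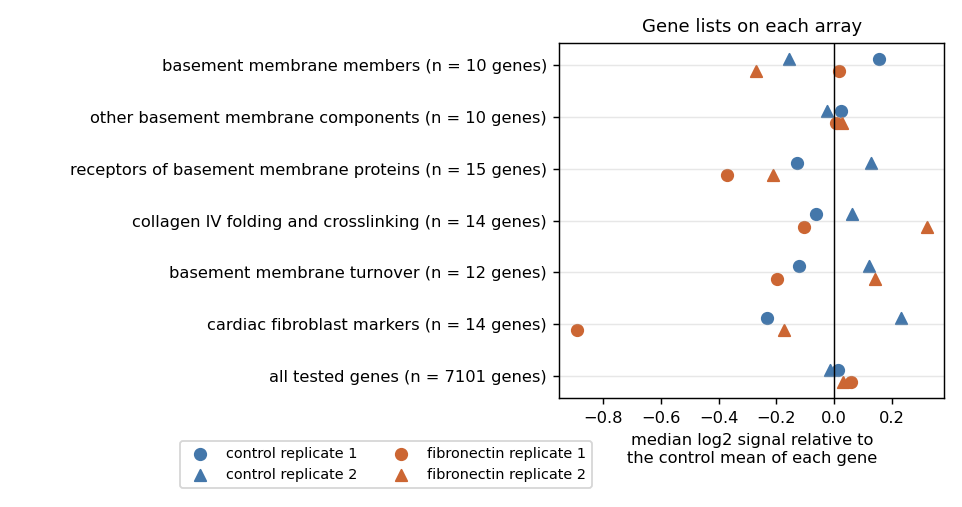
Median log2 signal of each gene list after subtracting each gene's control mean (x axis), on each of the 4 arrays (points), for the basement membrane members, related lists, fibroblast markers and all tested genes (y axis, n = genes tested). The receptor list lies below both controls on both fibronectin arrays, at -0.37 and -0.21, whereas fibronectin replicate 1 lies between the controls for the 10 members.

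Markers of other cell types were compared on the same arrays. Of 14 cardiac fibroblast markers tested, 10 were lower and 4 higher on fibronectin, and 0 passed limma's threshold. Groups did not overlap for 6 lower ones, Col1a1, Dcn, Lum, Ogn, Pdgfra and Postn, and 1 higher one, S100a4 at 0.51, where 17.2% and 20.6% of all tested genes lay in those classes. The median difference of the 14 was -0.65, and their summed intensity was 49929 and 68430 on the controls, and 38664 and 53691 on fibronectin, so the summed ranges overlapped. Sums in this paragraph cover every listed gene on the array, tested or not, whereas counts cover tested genes only. Of 10 endothelial markers 8 were on the array and only 3 were tested, 2 higher and 1 lower. Eng was higher without overlap. The sum over those 8 was 780 to 817 on the controls and 584 to 832 on fibronectin. Smooth muscle and pericyte markers were lower in 4 of 7 tested, with sums over 8 genes of 6682 to 11655 and 7569 to 9831. Without overlap, 3 of them were lower and 2 higher. Macrophage markers were lower in 6 of 7 tested. Sums over 9 genes were 2150 to 2764 on the controls and 1444 to 1883 on fibronectin, without overlap. Cd53, Lgals3 and Aif1 were lower without overlap, with Aif1 at the floor on fibronectin replicate 2. Of 7 markers listed for Schwann cells, 5 were on the array and only 3 were tested, Cnp, Gfap and Prph, with 3 of 3 higher. The sum over those 5 was 364 to 536 on the controls and 721 to 859 on fibronectin, without overlap. Cnp and Prph were higher without overlap, but Prph read 4.69 on control replicate 2, close to the floor of 4.55. Myocyte markers were higher in 4 of 8, with sums of 55915 to 60981 and 55631 to 56479, and 0 were without overlap. Of all tested genes, 17.2% were lower and 20.6% higher without overlap. No marker of these lists was at the floor on all 4 arrays. Set against each gene's control mean, the fibroblast median was -0.23 and 0.23 on the controls, which mirror each other by construction. It was -0.89 and -0.17 on fibronectin replicates 1 and 2, so fibronectin replicate 2 lay between the controls. The part of these cell types in the values of the 10 genes was not tested.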

How the data were processed

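The deposited table held 1 linear signal intensity per probe set and array for 4 Affymetrix rat arrays; the authors' steps from scan to intensity are not given in the sources used here. Trimmed means, leaving out 2% at each end, differed by over 10%, so arrays were quantile normalized. Values under 23.4, the 20th percentile, were set to that floor before taking log2. After leaving out 9 control probe sets, the 6347 dimmest (40%) were not tested, and 9519 were. Symbols came from the platform annotation, in which 12783 probe sets had 1 symbol, 312 several and 2771 none, and Entrez identifiers of the 14 member probe sets gave the same symbols in the GRCr8 gene table. The groups were tested in limma 3.58.1 (R 4.3.3; lmFit, then eBayes with trend), two-sided, with Benjamini-Hochberg adjustment over all tested probe sets. The method was tested on 20 simulated data sets with normal errors, in each of which 200 probe sets were shifted. At the adjusted threshold it called 5.45% of those shifted by a log2 of 1, and 52.8% of those shifted by 2. Most shifts as small as 1 would thus not pass. Errors beside differences are limma's moderated standard errors, and 2 arrays per group limit the precision.

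The members, the lists and the tests were chosen with earlier results of these data known. Named genes were every member probe set, and the 3 brightest tested genes of 4 related lists (other components, receptors, folding and crosslinking, turnover). Genes without overlap in those lists and in the marker lists were named after their values were seen. Marker lists covered myocytes, fibroblasts, endothelium, smooth muscle, macrophages and Schwann cells. Alternatives were the deposited scale, a shift to the same median, no filter or a 60% filter on dim probe sets, no floor, an offset of 50, a block for the replicate number, other variance models, an adjusted p of 0.10, each array left out, and other ways to combine probe sets. Counts of member genes lower, or lower without overlap, were added after seeing the data.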

Additional observations from a re-analysis of the deposited data

Results flagged for a closer look

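The Affymetrix control probe sets entered the quantile normalization and the floor but none of the tests. They gave ratios of 3' to 5' signal above those of both control arrays in 5 of the 6 values on the fibronectin arrays. For beta-actin the ratio was 13.0 on fibronectin replicate 1 and 6.29 on fibronectin replicate 2, against 1.46 and 1.40 on the controls. For Gapdh it was 6.02 and 3.52 against 1.64 and 1.15. For hexokinase, a dim transcript, it was 7.0 on fibronectin replicate 2, against 3.77 and 4.12 on the controls and 3.11 on fibronectin replicate 1. Its deposited 5' signal was 37.9 and 28.9 on the controls, and 8.27 and 7.79 on fibronectin. The fibronectin values lie below 23.4, the floor set on normalized values, so these hexokinase ratios rest on very low signal.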

How the results depend on the processing

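No member probe set passed limma's threshold under the deposited scale, the shift to the same median, or any filter, floor, offset or variance model. The number of all probe sets past the threshold, 0 with the 4 arrays, was 234 with the replicate number as a block, and ran from 0 to 459 with 1 array left out. Leaving out control replicate 1 gave 6, leaving out fibronectin replicate 2 gave 17, and leaving out fibronectin replicate 1 gave 459. The labels do not say what the replicate number stands for, and deviations of same-numbered arrays from their group means correlated with r = 0.271. In the block fit the dimmer Lamc1 probe set passed (-2.56, SE 0.39, limma's Benjamini-Hochberg adjusted p = 4.65e-05), and no other member did. The median over the 10 genes ran from -0.42 to 0.016 with 1 array left out, was -0.086 on the deposited scale, and was -0.38 over all 14 probe sets. The number of genes lower on fibronectin was 5 to 8 with 1 array left out, and the number lower without overlap was 0 on the deposited scale. With 1 array left out, signs turned for Lamb1 (-0.082 to 0.50), Lamb2 (-3.91e-05 to 0.55), the brighter Nid1 (-1.24 to 0.22) and dimmer Nid1 probe set (-0.28 to 2.02), Nid2 (-0.16 to 0.13, with 0.12 without fibronectin replicate 2) and the brighter Col18a1 probe set (-0.37 to 0.032). Nid2 also turned, to 0.067 on the deposited scale and 0.020 with the shift to the same median. The cause of these shifts was not tested.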

Other observations

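Probe sets of a gene disagreed beyond the members. Among the 850 named genes with several tested probe sets, the brightest and the dimmest differed in sign in 43.6%. Of the members with 2, Nid1 was in that class, with a gap of 1.35 that 17.9% of those genes matched or exceeded. The gap was 0.54 for Col18a1 and 0.25 for Col4a1. In the related lists, chosen here after their values were seen, the dimmer Itgb1 probe set differed by -1.86 against -0.77 in the brighter one, and the dimmer Timp2 probe set by -1.44 against 0.38.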
